A study of Homo sapiens with 20 samples.

Results

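Samples given a Traditional Chinese Medicine treatment described as strengthening the spleen and regulating qi flow were compared with samples given one described as activating blood and removing stasis, across all measured genes. The members were taken by the treatment label: 5 spleen-strengthening samples (titles 02, 05, 06, 07 and 08) and 5 blood-activating samples (titles 01, 04, 06, 08 and 09), 10 of the 20 samples in the series. The other 10 samples, 5 heat-clearing and 5 yin-nourishing, entered the statistical fit and are not described. Every sample carries the label SW1990, a human pancreatic adenocarcinoma cell line, and the series title speaks of a mouse model of that cancer. The sources used here give no herbs, dose, duration, untreated group, mouse strain or age. Each comparison therefore sets a treated group against another treated group. The labels do not state whether the samples of a group came from separate mice, so the spread between samples that p-values measure may be technical. In the main fit the gene p-values rest on a spread estimated over all 20 samples, not only the 10 compared. Below, the 5 values of a group follow the order of the titles just given.

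SW1990 cells came from a metastasis of a pancreatic ductal carcinoma and are used as a xenograft. Pancreatic ductal carcinomas differ in how far they keep a gland-like programme, driven by factors such as GATA6, or express squamous genes of the kind that build the outer layer of skin. The integrated stress response lowers protein synthesis when amino acids are short or proteins misfold, and switches on ATF4 targets for amino acid supply. PPP1R15A, also called GADD34, ends that response by directing a phosphatase to the initiation factor eIF2α. The ERK pathway is held back by phosphatases and corepressors that are themselves ERK targets, such as the DUSP family and NAB2.

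Ribosomal RNA was depleted from total RNA before sequencing, so short noncoding and mitochondrial transcripts were counted beside messenger RNA. The total count per sample lay between 81685860 and 109957028 in the spleen-strengthening group and between 90365565 and 110489122 in the blood-activating group. The markers of the labelled cell type were abundant: 10 ductal carcinoma markers, KRT19 and CEACAM6 among them, summed to 4169 to 5756 CPM (counts scaled to a common library size) in spleen-strengthening samples and 4597 to 6683 CPM in blood-activating samples. Libraries 01, 08 and 09 of the blood-activating group stood apart. RN7SK, the 7SK RNA that holds back transcription elongation, took 1.57, 1.95, 2.11, 3.02 and 1.70% of counts in spleen-strengthening samples, against 7.38, 2.16, 2.29, 5.54 and 5.89% in blood-activating samples. No spleen-strengthening library was near these 3, so treatment and library state cannot be told apart in them, and values without the 5 libraries of the series above 5% RN7SK are given below as "without the RN7SK-high libraries". In that comparison 2 blood-activating samples, 04 and 06, remain. Their titles end in the letter C, while those of blood-activating samples 01, 08 and 09 end in b. Among the spleen-strengthening titles that of sample 07 ends in C and the others in b. The labels do not say what the letter means, and in that comparison its part cannot be fully told apart from that of treatment. Mitochondrial messenger RNA took 17.2 to 23.2% of counts in spleen-strengthening samples and 12.9 to 22.3% in blood-activating samples, the 3 lowest being the same libraries.

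Markers of other cell types differed between the groups in part. Genes of pancreatic acinar cells, which make digestive enzymes, summed to 54.1, 92.4, 9.66, 10.3 and 7.34 CPM in spleen-strengthening samples, against 27.2, 88.3, 1063, 81.0 and 90.4 CPM in blood-activating samples. These sums overlapped between groups (exact permutation test, two-sided p = 0.0714, Benjamini-Hochberg adjusted p = 0.1995 over 16 quantities). Of 24 tested acinar genes all 24 had a log2 fold change below 0 (52.9% of all tested rows), with a median of -3.31. An edgeR unadjusted p under 0.05 was reached by 6, all lower (12.2% of all rows). PRSS1 was the 1 acinar gene with separate groups (2.49% of all rows). PRSS1, the gene of cationic trypsinogen, stood at 1.21, 1.75, 0.626, 1.01 and 0.315 CPM in spleen-strengthening samples, against 3.68, 6.24, 112, 4.24 and 3.51 CPM in blood-activating samples. Blood-activating sample 06 carried most of that RNA. Neutrophil markers summed to 10.6, 29.9, 34.6, 18.5 and 39.8 CPM in spleen-strengthening samples, against 104.2, 121.7, 55.3, 84.4 and 136.2 CPM in blood-activating samples. The groups did not overlap (exact permutation test, two-sided p = 0.00794, the smallest that 252 splits of 5 against 5 allow; Benjamini-Hochberg adjusted p = 0.127 over 16 quantities). Nearly all counts behind that sum were of S100A8 and S100A9, which squamous epithelium also makes. The defining neutrophil genes were near 0: MPO had 0 counts in all 5 spleen-strengthening samples together and 75 in the blood-activating ones, ELANE 11 and 4, CSF3R 11 and 81, FCGR3B 11 and 33, and CXCR2 22 and 117. Macrophage and monocyte markers summed to 50.6 to 59.9 CPM in spleen-strengthening samples and 56.5 to 89.6 CPM in blood-activating samples (exact permutation test, two-sided p = 0.0159; adjusted p = 0.127), and 2 genes carried most of that sum: CD68 had 19826 counts over the spleen-strengthening samples and 29163 over the blood-activating ones, and LYZ 4095 and 4628. TYROBP had 0 and 14 counts and AIF1 3 and 4. In these bulk samples a smaller share of cells of a type and less RNA per cell cannot be told apart. On a principal component analysis of the 10 samples the leading axis held 19.7% of the variance and placed every spleen-strengthening sample below every blood-activating one. The RN7SK-high blood-activating samples 01, 08 and 09 stood at 104.1, 92.9 and 84.2 on it. Blood-activating samples 04 and 06 stood at 16.9 and 28.4, nearer to spleen-strengthening sample 07 at -23.4. The lowest spleen-strengthening value was -97.0, in sample 06.

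**Figure D1:**
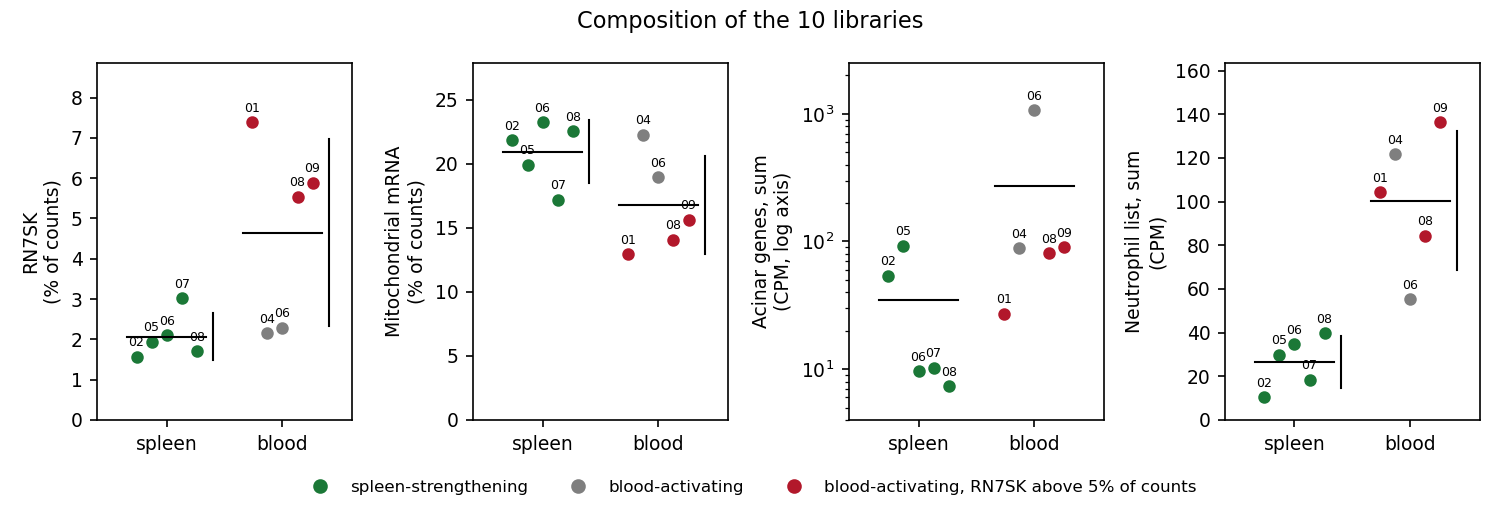
Share of counts from RN7SK (percent), share from mitochondrial messenger RNA (percent), summed acinar marker CPM (log axis) and summed neutrophil marker CPM, with 1 dot per library (its title number beside it), spleen-strengthening left and blood-activating right. Lines are means and bars SD (no SD on the log panel). Blood-activating libraries 01, 08 and 09 sit above 5% RN7SK and library 06 at 1063 CPM of acinar RNA, while the neutrophil sums of the groups do not overlap.

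Across genes, no row passed a Benjamini-Hochberg adjusted p of 0.05. edgeR's quasi-likelihood test was fitted over 24790 rows and all 20 samples, and its smallest adjusted p was 0.0600. An unadjusted p under 0.05 was reached by 5087 rows (20.5%), of which 3034 were lower in spleen-strengthening samples (12.2%) and 2053 were higher (8.28%). The 5 values of each group did not overlap in 617 rows lower in spleen-strengthening samples (2.49%) and 482 rows higher in them (1.94%). Other tools placed many of these past the adjusted threshold. DESeq2 called 1933 of the 13711 rows to which it gave an adjusted p (14.1%), 1242 lower (9.06%) and 691 higher (5.04%). limma voom called 4880 rows (19.7%), 2750 lower (11.1%) and 2130 higher (8.59%). Under edgeR, leaving out blood-activating sample 04 gave 2002 calls and leaving out heat-clearing sample 03 gave 311, and no other sample left out gave more than 12. The median log2 fold change over all tested rows was -0.04, and 52.9% of rows were below 0. Fold changes here are log2 of spleen-strengthening over blood-activating, given with their standard error after ±, and unadjusted p-values are edgeR's. Because no row passed in that fit, the genes below are described by their values and by whether the groups overlap, with the unadjusted p as a rank and not as a call.

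Among rows with a small p in all samples, the median difference was smaller without the RN7SK-high libraries. Of the 3034 rows lower at an unadjusted p under 0.05, 3007 could also be fitted without those libraries, and 2678 (89.1%) kept their direction, with a median log2 fold change of -0.29 against -0.77 in all samples. Of those 3007 rows, 603 (20.1%) kept their direction at an unadjusted p under 0.05. Of the 2053 rows higher, 2030 (98.9%) kept their direction, with a median of 0.25 against 0.46, and 407 (19.8%) did so at an unadjusted p under 0.05. These rows were chosen for a small p in a fit that holds both the libraries kept here and those left out. That choice alone can make the median smaller in the reduced fit, which also holds fewer blood-activating samples. The part of library state in the drop was not tested. Among all 28334 rows of the reduced fit, 1152 were lower and 709 higher at an edgeR unadjusted p under 0.05. Without these libraries edgeR called 3 of 28334 rows (0.0106%), all lower in spleen-strengthening samples: APOL1, PITX1 and SPRR1A.

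PITX1, a homeobox factor of hindlimb and pituitary development, stood at 31.9, 39.4, 32.6, 32.5 and 38.9 CPM in spleen-strengthening samples, against 59.8, 79.0, 86.3, 86.4 and 89.2 CPM in blood-activating samples. Every blood-activating value was well above every spleen-strengthening one. Its log2 fold change was -1.19 ± 0.23 in all samples (edgeR adjusted p = 0.0835) and -1.23 without the RN7SK-high libraries, with an edgeR adjusted p of 0.0447 there. The gene lies on chromosome 5, 135027735 to 135034813, - strand (hg38). APOL1, an interferon-induced apolipoprotein, stood at 20.5, 27.4, 30.6, 24.6 and 27.0 CPM in spleen-strengthening samples, against 30.0, 73.0, 62.9, 32.2 and 36.3 CPM in blood-activating samples. The 2 blood-activating samples with little RN7SK, 04 and 06, held its highest values, and the other 3 lay just above or among the spleen-strengthening ones. Its log2 fold change was larger without the RN7SK-high libraries, -1.38 (edgeR adjusted p = 0.00184), than in all samples, -0.85 ± 0.22.

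PPP1R15A had the smallest p of all rows lower in spleen-strengthening samples. It stood at 22.1, 16.6, 21.1, 18.0 and 15.3 CPM in spleen-strengthening samples, against 38.2, 26.8, 48.8, 66.6 and 50.3 CPM in blood-activating samples. Every blood-activating value exceeded every spleen-strengthening one, including those of the 2 libraries with little RN7SK. The log2 fold change was -1.31 ± 0.21 (edgeR adjusted p = 0.0600) and -1.01 without the RN7SK-high libraries. The gene lies on chromosome 19, 48872392 to 48876057, + strand. NAB2, a corepressor of EGR transcription factors that EGR1 itself induces, stood at 5.08, 5.55, 4.57, 5.67 and 4.21 CPM in spleen-strengthening samples, against 8.06, 10.3, 7.35, 9.65 and 9.49 CPM in blood-activating samples. The groups did not overlap, and the log2 fold change of -0.84 ± 0.15 was nearly the same without the RN7SK-high libraries, -0.81. NAB2 shares 69 exon bases with STAT6 at its end, and the strand setting of the counting is not given in the sources used here.

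Further genes were named for a small p or a wide gap in this direction. IL1RN, the interleukin-1 receptor antagonist, stood at 82.4, 111, 95.1, 88.9 and 117 CPM in spleen-strengthening samples, against 151, 166, 168, 242 and 229.8 CPM in blood-activating samples. PPARD, a lipid-sensing nuclear receptor that drives keratinocyte differentiation, stood at 30.2, 33.3, 32.5, 27.8 and 25.2 CPM in spleen-strengthening samples, against 65.1, 41.1, 57.3, 108 and 89.98 CPM in blood-activating samples. Neither gene's groups overlapped, with log2 fold changes of -0.95 ± 0.17 and -1.28 ± 0.24, or -0.75 and -0.71 without the RN7SK-high libraries. HSPB8, a small heat shock protein of the BAG3 chaperone complex, stood at 1.47, 2.35, 2.44, 1.27 and 2.53 CPM in spleen-strengthening samples, against 5.70, 3.92, 7.15, 4.39 and 4.98 CPM in blood-activating samples. KLC3, a kinesin light chain, ranged over 1.74 to 3.05 CPM in spleen-strengthening samples and 4.03 to 10.6 CPM in blood-activating samples, and shares 535 exon bases with ERCC2. MIDN, whose product midnolin directs immediate early proteins to the proteasome, ranged over 24.0 to 32.7 CPM in spleen-strengthening samples and 46.2 to 72.1 CPM in blood-activating samples. UPK3BL1, a uroplakin-like gene with a near-identical copy whose counts may be split, ranged over 28.8 to 53.4 CPM in spleen-strengthening samples and 75.1 to 160.4 CPM in blood-activating samples. None of these 4 genes overlapped between groups. NHP2, a core protein of box H/ACA small nucleolar particles, ranged over 2.04 to 4.93 CPM in spleen-strengthening samples and 4.89 to 23.4 CPM in blood-activating samples and touched between groups, with a log2 fold change of -2.05 that was -0.94 without the RN7SK-high libraries. SH2D5, an adaptor named from earlier results of these data, had 4, 0, 0, 0 and 0 counts in spleen-strengthening samples, against 82, 56, 15, 40 and 49 counts in blood-activating samples.

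In the other direction CDK5R1, the p35 activator of the kinase CDK5, led. It stood at 32.4, 27.4, 27.4, 23.1 and 30.9 CPM in spleen-strengthening samples, against 12.6, 18.9, 17.1, 14.7 and 16.5 CPM in blood-activating samples. RECQL, a DNA helicase of the RecQ family, stood at 105, 109, 105, 99.2 and 105 CPM in spleen-strengthening samples, against 57.2, 76.1, 78.6, 55.3 and 64.7 CPM in blood-activating samples. Spleen-strengthening values of RECQL lay within 99.2 to 109.0 CPM, while the RN7SK-high libraries held the lowest blood-activating values. The groups did not overlap for either gene, with log2 fold changes of 0.82 ± 0.15 and 0.66 ± 0.13, or 0.66 and 0.44 without the RN7SK-high libraries. RECQL lies on chromosome 12, 21468911 to 21501669, - strand, and 1566 of its exon bases are shared with PYROXD1 on the opposite strand. RRP1B, a nucleolar protein of ribosome assembly, stood at 46.1, 47.0, 39.9, 39.4 and 47.1 CPM in spleen-strengthening samples, against 30.3, 31.5, 31.7, 26.9 and 27.6 CPM in blood-activating samples. SSPN, a member of the dystrophin-associated complex, ranged over 53.2 to 70.3 CPM in spleen-strengthening samples and 30.4 to 44.1 CPM in blood-activating samples, and PIK3R1, the regulatory subunit of phosphoinositide 3-kinase, over 25.3 to 37.5 CPM in spleen-strengthening samples and 13.3 to 24.4 CPM in blood-activating samples. Their groups did not overlap either.

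PHACTR3, a regulator of protein phosphatase 1 and actin, stood at 14.2, 8.02, 16.8, 15.9 and 18.9 CPM in spleen-strengthening samples, against 4.15, 9.45, 7.25, 3.62 and 5.29 CPM in blood-activating samples. Spleen-strengthening sample 05 lay among the blood-activating values, so its groups overlapped. GLCE, an epimerase of heparan sulfate synthesis, ranged over 41.8 to 72.0 CPM in spleen-strengthening samples and 20.6 to 40.9 CPM in blood-activating samples. SOD3, the extracellular superoxide dismutase, stood at 20.6, 18.9, 13.4, 13.5 and 14.6 CPM in spleen-strengthening samples, against 11.3, 10.9, 8.55, 7.84 and 11.1 CPM in blood-activating samples, a difference as large without the RN7SK-high libraries (0.74) as with them (0.71 ± 0.16). SLC39A4, an intestinal zinc importer, ranged over 20.7 to 30.6 CPM in spleen-strengthening samples and 12.6 to 19.2 CPM in blood-activating samples, and CCDC34, a coiled-coil protein gene, over 9.11 to 16.6 CPM in spleen-strengthening samples and 3.996 to 8.77 CPM in blood-activating samples. TMEFF1, a membrane protein gene counted beside its read-through partner MSANTD3-TMEFF1, stood at 4.56, 4.63, 3.99, 4.33 and 3.71 CPM in spleen-strengthening samples, against 0, 0.699, 2.68, 2.78 and 1.72 CPM in blood-activating samples. TMEFF1 was named for its gap alone: its log2 fold change was 1.429 ± 1.155, with an edgeR unadjusted p of 0.232. VKORC1L1, a relative of the vitamin K epoxide reductase, stood at 162, 150.3, 146, 137 and 138 CPM in spleen-strengthening samples, against 61.5, 110.2, 108, 63.5 and 58.2 CPM in blood-activating samples. SNX10, a sorting nexin of endosomes, ranged over 5.98 to 7.70 CPM in spleen-strengthening samples and 2.86 to 4.75 CPM in blood-activating samples. DUS4L-BCAP29, a read-through gene, and RPS7P10, a ribosomal protein pseudogene, also had groups that did not overlap, and reads of both may come from near-identical transcripts.

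**Figure D2:**
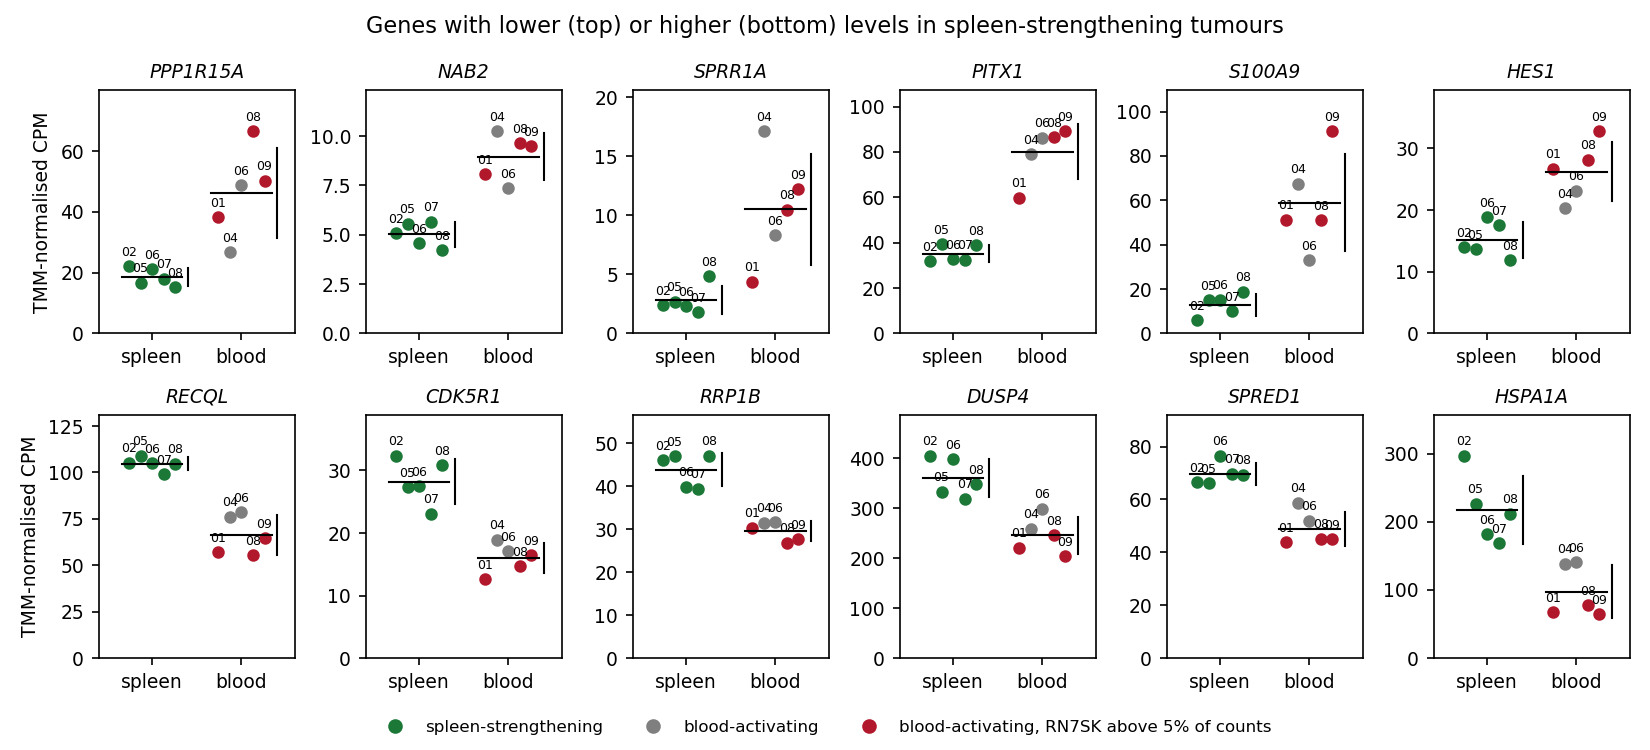
CPM of 12 genes, 1 dot per library with its title number, spleen-strengthening left and blood-activating right; lines are means and bars SD. The upper row holds PPP1R15A, NAB2, SPRR1A, PITX1, S100A9 and HES1, which were lower in spleen-strengthening samples, and the lower row RECQL, CDK5R1, RRP1B, DUSP4, SPRED1 and HSPA1A, which were higher. SPRR1A is the gene of the 12 whose groups overlap, at spleen-strengthening sample 08 and blood-activating sample 01.

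In the main fit with all libraries, squamous genes had the lowest median of the 28 gene lists described. Of 24 genes of the cornified envelope and its precursors, 23 were tested and 22 had a log2 fold change below 0, with a median of -1.45, against -0.04 over all tested rows. The median stayed at -1.45 with KRTDAP set at a floor of 3 counts over the spleen-strengthening samples, and was -1.26 without the RN7SK-high libraries. It was -0.56 under a stricter filter on low counts and -0.82 with a replicate block by title number, so its size depended on the processing. An unadjusted p under 0.05 was reached by 10 genes, all lower in spleen-strengthening samples (12.2% of all rows), and 4 had groups that did not overlap (2.49% of all rows). KRTDAP is among both the 22 and the 10, and with no count in the spleen-strengthening samples it could only come out lower. In this list DESeq2 called 7 genes lower (9.06% of the rows to which it gave an adjusted p) and limma voom 9 (11.1% of all rows). The counts of each list below are to be read against these shares. For genes higher in spleen-strengthening samples the shares are 8.28% at an unadjusted p under 0.05 and 1.94% without overlap. The list is scaled to the mean of the spleen-strengthening samples in the next values: the median gene stood at -0.17, 0.28, 0.01, -0.47 and 0.41 log2 units in spleen-strengthening samples, against 0.06, 0.86, 0.80, 0.90 and 0.74 in blood-activating samples. Blood-activating sample 01, the library richest in RN7SK, lay inside the spleen-strengthening range.

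Small proline-rich proteins are cross-linked into the cornified envelope and are known AP-1 targets in keratinocytes. RefSeq promoter windows (GRCh38.p14, 250 bases before to 50 after the start) were found for 15 of the 23 genes. Of these genes, 7 have a window with the AP-1 letters TGANTCA on either strand, against 7.71% of 35116 promoter windows. A gene may have more than 1 window, while the share is over single windows. Counts of genes and shares of windows are thus not alike, here and in the lists below. The search in this list was added after the values were seen. The same letters, searched in the immediate early genes described below, were found for 1 of 22 genes with a window. The sites of 5 squamous genes, 4 with a log2 fold change below 0 and SPRR1B above 0, are given 5′ to 3′ on the strand of the gene, with the match in capitals and 15 bases on each side.
SPRR1A, chr1:152983958-152983994, + strand: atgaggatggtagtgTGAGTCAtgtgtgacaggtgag
SPRR1B, chr1:153031077-153031113, + strand: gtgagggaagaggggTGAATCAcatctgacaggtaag
SPRR2A, chr1:153057688-153057724, - strand: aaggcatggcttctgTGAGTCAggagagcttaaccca
SPRR3, chr1:153001564-153001600, + strand: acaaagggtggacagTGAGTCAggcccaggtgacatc
KRTDAP, chr19:35490525-35490561, - strand: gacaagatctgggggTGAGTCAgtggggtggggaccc
The match begins 108, 111, 197, 170 and 82 bases before the start site in SPRR1A, SPRR1B, SPRR2A, SPRR3 and KRTDAP. The other 2 genes with the letters in a window are IVL, the envelope precursor involucrin, and SCEL, which encodes sciellin, with log2 fold changes of -0.36 ± 0.23 and -0.19 ± 0.11, or -0.61 and -0.15 without the RN7SK-high libraries. Genes that hold the letters thus differed in size and sign of the difference. A match of letters is a description and not a binding site.

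SPRR1A stood at 2.42, 2.69, 2.28, 1.79 and 4.85 CPM in spleen-strengthening samples, against 4.38, 17.2, 8.31, 10.5 and 12.2 CPM in blood-activating samples. Blood-activating sample 01 lay below spleen-strengthening sample 08, and the other values did not cross. Its log2 fold change was -1.91 ± 0.34 (edgeR adjusted p = 0.0600), and without the RN7SK-high libraries -2.18 (edgeR adjusted p = 0.0447). SPRR2A stood at 3.89, 9.16, 7.70, 3.56 and 4.02 CPM in spleen-strengthening samples, against 14.1, 12.1, 27.7, 35.7 and 28.4 CPM in blood-activating samples, with no overlap, although its near-identical family members may share reads. Other members of the family were not lower throughout: SPRR1B ranged over 455 to 1262 CPM in spleen-strengthening samples and 475 to 1090 CPM in blood-activating samples, with a log2 fold change of 0.32 ± 0.36, or 0.05 without the RN7SK-high libraries. SPRR3 stood at 394, 766, 587, 285 and 951 CPM in spleen-strengthening samples, against 305, 986, 1023, 1123 and 896 CPM in blood-activating samples, with blood-activating sample 01 near the lowest value and the other 4 near or above the highest. KRTDAP, a secreted protein of differentiating keratinocytes, had 0 counts in the spleen-strengthening samples together and 183 in the blood-activating ones together. Set at an assumed floor of 3 counts over the group it would be 54.7-fold lower, a value that does not measure the spread between samples. With no count in the spleen-strengthening samples, this gene could only come out lower.

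S100A9 and S100A8 form the calcium-binding protein calprotectin. S100A9 stood at 6.03, 14.9, 15.2, 10.1 and 18.8 CPM in spleen-strengthening samples, against 51.3, 67.5, 32.9, 51.0 and 91.2 CPM in blood-activating samples, and S100A8 at 4.59, 15.1, 21.5, 7.68 and 21.8 CPM in spleen-strengthening samples, against 48.7, 53.9, 21.5, 31.1 and 45.7 CPM in blood-activating samples. The groups did not overlap for S100A9 and met at 21.5 to 21.8 CPM for S100A8. Log2 fold changes were -2.18 ± 0.50 and -1.51 ± 0.41, or -1.94 and -1.41 without the RN7SK-high libraries. PI3, the elastase inhibitor elafin, stood at 35.8, 114, 62.1, 57.0 and 142 CPM in spleen-strengthening samples, against 210.4, 251, 164, 236 and 260.0 CPM in blood-activating samples, without overlap. CSTA, the envelope component cystatin A, ranged over 3.16 to 14.7 CPM in spleen-strengthening samples and 14.6 to 73.0 CPM in blood-activating samples, and TGM1, the transglutaminase that cross-links the envelope, over 0.0588 to 0.436 CPM in spleen-strengthening samples and 0.0960 to 1.69 CPM in blood-activating samples. Both overlapped at single samples. Markers of skin keratinocytes, which express many of the same genes, summed to 8.29 to 36.7 CPM in spleen-strengthening samples and 7.64 to 136.5 CPM in blood-activating samples. Filaggrin (FLG) supplied most of the difference, with 4246 counts over the spleen-strengthening samples and 19444 over the blood-activating ones, of which 11274 were in sample 04. The part of other cell types in the squamous genes was not tested.

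**Figure D3:**
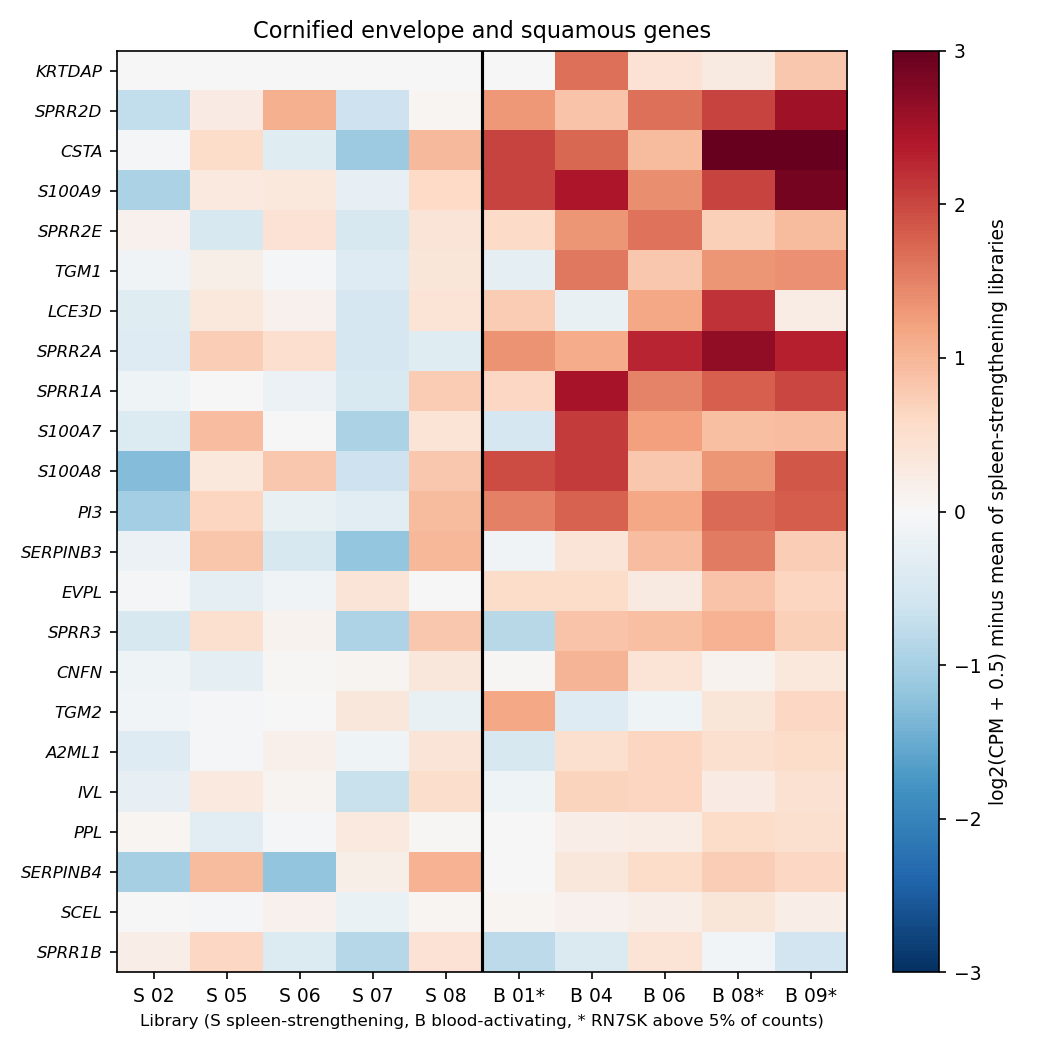
Log2 (CPM + 0.5) of 23 tested squamous genes in each of the 10 libraries, minus the gene's mean over the spleen-strengthening libraries; columns are libraries, spleen-strengthening left, and colours run from -3 to 3. Most genes are above the spleen-strengthening mean in blood-activating libraries 04, 06, 08 and 09, while library 01 is mixed.

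Keratins were lower on balance with all libraries and near 0 without the RN7SK-high ones. Of 17 simple and basal keratins, 14 had a log2 fold change below 0, with a median of -0.64 that was -0.09 without those libraries. An unadjusted p under 0.05 was reached by 8, all lower (12.2% of all rows). KRT5, the basal epithelial keratin, stood at 229, 548, 304, 304 and 528 CPM in spleen-strengthening samples, against 584, 664, 616, 808 and 1084 CPM in blood-activating samples, which was the sole keratin with separate groups. Its partner KRT14 stood at 103, 350.3, 256, 213 and 366 CPM in spleen-strengthening samples, against 279.9, 393, 406, 468 and 671 CPM in blood-activating samples. KRT17 and KRT16, keratins of stressed epithelium whose pseudogenes may share reads, ranged over 297 to 414 CPM in spleen-strengthening samples and 392 to 1098 CPM in blood-activating samples and over 64.2 to 100.2 CPM in spleen-strengthening samples and 91.0 to 326 CPM in blood-activating samples. KRT13, a keratin of mucosal surfaces, ranged over 112 to 219 CPM in spleen-strengthening samples and 138 to 418 CPM in blood-activating samples and had a larger difference without the RN7SK-high libraries (-1.03) than with them (-0.84 ± 0.28). KRT6A, a keratin of stressed epithelium, ranged over 1157 to 2626 CPM in spleen-strengthening samples and 1214 to 1681 CPM in blood-activating samples and overlapped.

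Integrated stress response genes were lower in spleen-strengthening samples in 28 of 30 cases. Their median log2 fold change was -0.60, against -0.04 over all tested rows, and -0.21 without the RN7SK-high libraries. An unadjusted p under 0.05 was reached by 16 genes, all lower (12.2% of all rows), and 6 had groups that did not overlap (2.49% of all rows). DESeq2 called 8 lower (9.06% of the rows to which it gave an adjusted p) and limma voom 10 (11.1% of all rows). Relative to the spleen-strengthening mean, the median gene stood at -0.04 to 0.09 log2 units in spleen-strengthening samples and at 0.76, 0.07, 0.33, 0.53 and 0.48 in blood-activating samples. Blood-activating sample 04 was thus inside the spleen-strengthening range.

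ATF4 binds composite elements whose letters were searched as TGATGNAA. Promoter windows were found for 25 of the 30 genes, and 7 of these genes have a window with those letters, against 3.62% of all single windows. They are CHAC1, ATF3, SLC1A5, CEBPG, ASNS, SLC3A2 and SLC7A1. The windows of PPP1R15A and SLC7A5, whose groups did not overlap, hold no match. Of the sites in the 7 genes, 4 are shown on the strand of each gene, with the match in capitals.
CHAC1, chr15:40953247-40953284, + strand: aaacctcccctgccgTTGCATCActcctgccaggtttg
ATF3, chr1:212565201-212565238, + strand: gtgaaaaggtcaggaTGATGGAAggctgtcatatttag
SLC1A5, chr19:46784889-46784926, - strand: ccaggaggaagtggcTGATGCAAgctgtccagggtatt
CEBPG, chr19:33374056-33374093, + strand: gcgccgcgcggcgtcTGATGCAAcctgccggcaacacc
In CHAC1 the letters are read on the opposite strand. The values of these genes were not alike: CHAC1, a glutathione-cleaving enzyme, ranged over 0.365 to 2.38 CPM in spleen-strengthening samples and 0.536 to 4.10 CPM in blood-activating samples, while CEBPG, a C/EBP partner of ATF4, ranged over 17.8 to 22.4 CPM in spleen-strengthening samples and 19.2 to 19.6 CPM in blood-activating samples. ATF3, a stress-induced repressor, stood at 2.76, 3.07, 3.14, 1.86 and 2.90 CPM in spleen-strengthening samples, against 4.43, 2.80, 8.25, 8.13 and 4.57 CPM in blood-activating samples. SLC1A5, the glutamine transporter, stood at 45.4, 41.8, 35.8, 55.5 and 47.6 CPM in spleen-strengthening samples, against 87.3, 54.8, 50.3, 83.6 and 98.6 CPM in blood-activating samples, with overlap at 1 spleen-strengthening sample. ASNS, asparagine synthetase, and SLC3A2, the partner chain of SLC7A5, had log2 fold changes of -0.74 ± 0.88 and -0.27 ± 0.11, and without the RN7SK-high libraries that of ASNS was 1.53, opposite in sign, and that of SLC3A2 -0.32.

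Serine and amino acid supply genes ranked next to PPP1R15A in this list. SHMT2, which passes serine carbon to folate in mitochondria, stood at 24.1, 20.5, 21.3, 25.03 and 15.8 CPM in spleen-strengthening samples, against 65.6, 25.1, 28.2, 39.0 and 40.3 CPM in blood-activating samples. PCK2, the mitochondrial phosphoenolpyruvate carboxykinase, stood at 1.78, 2.42, 2.38, 3.55 and 1.40 CPM in spleen-strengthening samples, against 7.48, 4.33, 3.55, 4.33 and 4.34 CPM in blood-activating samples. SLC7A5, the large neutral amino acid transporter, stood at 60.5, 73.5, 64.5, 61.2 and 69.8 CPM in spleen-strengthening samples, against 121, 75.3, 107, 97.2 and 94.5 CPM in blood-activating samples. The groups separated narrowly in all 3 genes, with blood-activating sample 04 closest in SHMT2 and SLC7A5 and sample 06 closest in PCK2. Log2 fold changes were -0.89 ± 0.22, -1.06 ± 0.28 and -0.59 ± 0.15, and -0.31, -0.77 and -0.46 without the RN7SK-high libraries. SLC7A1, an arginine transporter, stood at 33.7, 28.6, 31.3, 39.5 and 31.6 CPM in spleen-strengthening samples, against 75.3, 34.3, 37.0, 52.5 and 49.8 CPM in blood-activating samples. ATF4 itself ranged over 129 to 157 CPM in spleen-strengthening samples and 134 to 188 CPM in blood-activating samples, with overlap and a log2 fold change of -0.15 ± 0.11, or -0.08 without the RN7SK-high libraries.

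Other protein homeostasis genes moved unevenly. Cytosolic aminoacyl-tRNA synthetases, which ATF4 also induces, were lower in 6 and higher in 10 of 16 tested cases, with a median of 0.08, and of -0.0039 without blood-activating sample 08. FARSB, a subunit of the phenylalanine enzyme, stood at 63.5, 72.7, 65.9, 65.1 and 70.4 CPM in spleen-strengthening samples, against 59.0, 57.5, 61.4, 37.0 and 51.8 CPM in blood-activating samples, without overlap, whereas CARS1, the cysteine enzyme, had a log2 fold change of -0.43 ± 0.18 that was 0.02 without the RN7SK-high libraries. Chaperones of the endoplasmic reticulum were split: CALR, the calcium-binding chaperone calreticulin, ranged over 308 to 419.6 CPM in spleen-strengthening samples and 375 to 743 CPM in blood-activating samples, and PDIA6, a disulfide isomerase, over 366 to 469 CPM in spleen-strengthening samples and 166 to 377 CPM in blood-activating samples. HSPA1A, the inducible cytosolic HSP70, stood at 297, 227, 182, 168 and 212 CPM in spleen-strengthening samples, against 67.2, 138, 141, 77.6 and 64.6 CPM in blood-activating samples, higher in every spleen-strengthening sample, with a log2 fold change of 1.15 ± 0.31, or 0.64 without the RN7SK-high libraries. Its near-identical copy HSPA1B had a log2 fold change of 0.22 ± 0.12, so the split of reads between the copies is uncertain. HSPB1, a small heat shock protein, and BAG3, the co-chaperone of HSPB8, had log2 fold changes of -0.53 ± 0.16 and -0.42 ± 0.15, and BAG3 had separate groups.

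NF-kB genes were lower in 23 of 30 tested cases (of 32 listed), with a median log2 fold change of -0.56 and of -0.25 without the RN7SK-high libraries. An unadjusted p under 0.05 was reached by 11, all lower (12.2% of all rows), and 4 had separate groups (2.49% of all rows). The NF-kB motif, searched on both strands, was in a window of 22 of the 25 genes with a promoter window, and in 58.7% of all single windows. LIF, an interleukin-6 family cytokine made by pancreatic carcinoma cells, stood at 60.2, 52.7, 70.0, 60.1 and 61.9 CPM in spleen-strengthening samples, against 104, 75.4, 87.7, 131 and 96.8 CPM in blood-activating samples. NFKBIE, the inhibitor IκBε, stood at 0.468, 0.381, 0.356, 0.518 and 0.133 CPM in spleen-strengthening samples, against 1.38, 2.14, 0.937, 1.18 and 1.29 CPM in blood-activating samples. TNFAIP2, a tumour necrosis factor target, ranged over 38.5 to 41.3 CPM in spleen-strengthening samples and 47.2 to 75.2 CPM in blood-activating samples. These 3 genes and NFKB2, the precursor of the p52 subunit with 6.99 to 10.03 CPM in spleen-strengthening samples and 11.1 to 17.0 CPM in blood-activating samples, did not overlap between groups. RELA, the p65 subunit, ranged over 37.8 to 50.7 CPM in spleen-strengthening samples and 48.7 to 87.1 CPM in blood-activating samples and overlapped. TNFAIP3, the ubiquitin-editing inhibitor A20, had a log2 fold change of -0.94 ± 0.27, of which -0.83 was left without the RN7SK-high libraries. PTGS2, the inducible cyclooxygenase, ranged over 3.29 to 11.8 CPM in spleen-strengthening samples and 2.77 to 19.6 CPM in blood-activating samples and overlapped widely.

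The interferon list had a median further from 0 without the RN7SK-high libraries, -0.32, than with them, -0.24. It was -0.13 without blood-activating sample 01, -0.15 without blood-activating sample 04 and -0.07 under limma voom. Of 28 tested genes 22 were below 0 (52.9% of all rows), 8 reached an unadjusted p under 0.05, all lower (12.2% of all rows), and 3 had separate groups (2.49% of all rows). BST2, the tetherin that holds back budding viruses, stood at 10.1, 18.5, 11.9, 18.1 and 17.7 CPM in spleen-strengthening samples, against 50.3, 38.2, 20.1, 26.0 and 38.0 CPM in blood-activating samples. ISG15, a ubiquitin-like modifier, stood at 16.1, 28.2, 19.2, 30.5 and 28.1 CPM in spleen-strengthening samples, against 94.3, 47.2, 31.0, 36.7 and 58.9 CPM in blood-activating samples. IFI27, another interferon target, ranged over 49.9 to 75.1 CPM in spleen-strengthening samples and 77.5 to 208 CPM in blood-activating samples. The groups did not overlap in any of the 3, and blood-activating sample 01 held the highest value of each. Relative to the spleen-strengthening mean, the median interferon gene stood at -0.32 to 0.25 log2 units in spleen-strengthening samples and at 0.56, 0.64, 0.01, -0.48 and 0.00 in blood-activating samples. Blood-activating samples 01 and 04 were above the spleen-strengthening range and sample 08 was below it. Class I antigen presentation genes were below 0 in 12 of 16 cases, with a median of -0.39, which was -0.26 without the RN7SK-high libraries and -0.16 without blood-activating sample 01. HLA-E, the ligand of natural killer cell receptors, stood at 12.1, 17.7, 15.6, 12.9 and 14.9 CPM in spleen-strengthening samples, against 22.4, 25.8, 18.9, 26.3 and 19.6 CPM in blood-activating samples, without overlap and with a log2 fold change of -0.63 ± 0.21 that stayed at -0.60 without the RN7SK-high libraries. HLA-B stood at 53.5, 72.1, 66.8, 69.9 and 58.8 CPM in spleen-strengthening samples, against 256, 112, 59.5, 97.6 and 102 CPM in blood-activating samples, where sample 01 lay far above the rest. NLRC5, the activator of class I genes, ranged over 11.1 to 14.9 CPM in spleen-strengthening samples and 13.5 to 27.2 CPM in blood-activating samples.

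Genes around the ERK pathway did not move as a set. Of 25 EGF family ligands, receptors and feedback genes 17 were below 0, with a median of -0.06. At an unadjusted p under 0.05, 2 were lower (12.2% of all rows) and 4 higher (8.28% of all rows). DUSP4, a nuclear ERK phosphatase, stood at 405, 333, 397, 318 and 348 CPM in spleen-strengthening samples, against 221, 259, 299, 246 and 204 CPM in blood-activating samples. SPRED1, an inhibitor of RAS signalling, stood at 66.5, 66.1, 76.5, 69.7 and 69.4 CPM in spleen-strengthening samples, against 43.9, 58.8, 51.9, 45.1 and 44.9 CPM in blood-activating samples. Both were higher in every spleen-strengthening sample than in any blood-activating one, with log2 fold changes of 0.55 ± 0.13 and 0.51 ± 0.15, or 0.38 and 0.34 without the RN7SK-high libraries. DUSP6, the cytoplasmic ERK phosphatase, lay in the same direction with a log2 fold change of 0.42 ± 0.18, or 0.11 without the RN7SK-high libraries, and with overlap. DUSP5, another nuclear ERK phosphatase, lay in the opposite direction and stood at 64.8, 72.4, 80.9, 49.5 and 57.4 CPM in spleen-strengthening samples, against 102, 72.0, 119, 169.6 and 130.5 CPM in blood-activating samples, overlapping at blood-activating sample 04. With NAB2 also lower, feedback genes of the same pathway thus differed in sign.

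Immediate early genes, which cells transcribe within minutes of a stimulus, were below 0 in 24 of 30 cases, with a median of -0.31 and of -0.20 without the RN7SK-high libraries. Of these 9 were lower (12.2% of all rows) and 1 higher (8.28% of all rows) at an unadjusted p under 0.05, and no gene had separate groups. NR4A1, an orphan nuclear receptor, ranged over 5.36 to 9.27 CPM in spleen-strengthening samples and 8.46 to 16.5 CPM in blood-activating samples. KLF4, an epithelial differentiation factor, stood at 14.99, 18.8, 16.4, 12.6 and 13.5 CPM in spleen-strengthening samples, against 21.4, 18.5, 24.8, 37.2 and 34.6 CPM in blood-activating samples, and EGR1 at 24.9, 33.3, 21.0, 18.8 and 19.2 CPM in spleen-strengthening samples, against 32.6, 23.3, 34.7, 58.8 and 39.7 CPM in blood-activating samples. In both, sample 04 lay within the spleen-strengthening range and samples 08 and 09 were highest.

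Notch and Wnt genes were lower in 18 of 23 tested members, with a median of -0.30, or -0.12 without the RN7SK-high libraries. Of these 7 were lower at an unadjusted p under 0.05 (12.2% of all rows) and 3 had separate groups (2.49% of all rows). HES1, the repressor that Notch switches on, stood at 13.9, 13.7, 18.8, 17.6 and 11.9 CPM in spleen-strengthening samples, against 26.7, 20.3, 23.1, 28.2 and 32.8 CPM in blood-activating samples. NOTCH3, a receptor, stood at 70.2, 66.7, 60.4, 71.8 and 65.2 CPM in spleen-strengthening samples, against 85.3, 95.1, 84.4, 194 and 148 CPM in blood-activating samples, and NOTCH1, another receptor, at 20.2, 19.4, 15.2, 19.1 and 17.4 CPM in spleen-strengthening samples, against 28.7, 21.1, 23.9, 41.1 and 36.0 CPM in blood-activating samples. These were the 3 genes with separate groups, with log2 fold changes of -0.79 ± 0.16, -0.86 ± 0.25 and -0.72 ± 0.27, or -0.51, -0.42 and -0.29 without the RN7SK-high libraries. HEY1, another Notch target, stood at 0.908, 0.851, 1.20, 1.28 and 1.29 CPM in spleen-strengthening samples, against 1.06, 2.67, 3.20, 2.36 and 2.10 CPM in blood-activating samples, and its difference was larger without the RN7SK-high libraries (-1.40) than with them (-1.04 ± 0.32). HES4 ranged over 2.88 to 8.14 CPM in spleen-strengthening samples and 5.95 to 14.3 CPM in blood-activating samples.

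Pancreatic lineage and subtype factors were mixed. GATA6, the factor of the gland-like programme, was higher in spleen-strengthening samples and stood at 14.3, 17.8, 16.9, 11.4 and 9.97 CPM in spleen-strengthening samples, against 10.3, 6.18, 9.67, 9.31 and 7.81 CPM in blood-activating samples. Spleen-strengthening sample 08 lay below blood-activating sample 01, the other values being apart, and the log2 fold change was 0.70 ± 0.27 in all samples and 0.84 without the RN7SK-high libraries. FOXA2, an endoderm factor, and ELF3, an epithelial ETS factor, ranged over 2.66 to 6.71 CPM in spleen-strengthening samples and 5.92 to 11.9 CPM in blood-activating samples and over 34.2 to 62.4 CPM in spleen-strengthening samples and 61.9 to 133 CPM in blood-activating samples, with log2 fold changes of -0.92 ± 0.30 and -0.90 ± 0.30, or -0.39 and -0.56 without the RN7SK-high libraries. Among pancreatic cancer driver genes, TGFBR2, the type II TGF-β receptor, stood at 189.7, 185, 199, 167 and 195 CPM in spleen-strengthening samples, against 143, 166, 163, 146 and 158 CPM in blood-activating samples. It was higher in every spleen-strengthening sample than in any blood-activating sample, with a log2 fold change of 0.27 ± 0.10, or 0.19 without the RN7SK-high libraries. GNAS had a log2 fold change of -0.37 ± 0.14 that turned to 0.07 without the RN7SK-high libraries.

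Hypoxia and glycolysis genes were lower on balance. Of 27 tested hypoxia targets 20 were below 0 (52.9% of all rows), with a median of -0.40, or -0.26 without the RN7SK-high libraries, and 8 reached an unadjusted p under 0.05, all lower (12.2% of all rows). The letters ACGTG of the hypoxia motif, on either strand, were in a window of 14 of the 21 genes with a promoter window, and in 21.4% of all single windows. VEGFA, the endothelial growth factor, stood at 41.4, 35.4, 35.6, 27.9 and 29.6 CPM in spleen-strengthening samples, against 48.8, 41.5, 66.3, 108 and 78.8 CPM in blood-activating samples. Blood-activating sample 04 was level with the highest spleen-strengthening sample, and samples 06, 08 and 09 were the highest. Relative to the spleen-strengthening mean, the median hypoxia gene stood at -0.34 to 0.19 log2 units in spleen-strengthening samples and at -0.33, 0.06, 0.42, 0.53 and 0.59 in blood-activating samples, so that samples 01 and 04 were inside that range. BHLHE40, a repressor that hypoxia induces, ranged over 115 to 172 CPM in spleen-strengthening samples and 136 to 279 CPM in blood-activating samples, ANKRD37 over 2.84 to 6.36 CPM in spleen-strengthening samples and 3.77 to 11.9 CPM in blood-activating samples and LOXL2, a collagen cross-linking enzyme, over 7.89 to 13.3 CPM in spleen-strengthening samples and 7.68 to 39.3 CPM in blood-activating samples. All 3 overlapped.

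Of 23 glycolysis genes 19 were below 0, with a median of -0.30. SLC2A1, the glucose transporter GLUT1, stood at 231, 246, 204, 163 and 227 CPM in spleen-strengthening samples, against 312, 209, 338, 555 and 455 CPM in blood-activating samples, again with sample 04 inside the spleen-strengthening range. ALDOC, an aldolase, and PFKP and PFKL, phosphofructokinase subunits, had log2 fold changes of -0.60 ± 0.17, -0.59 ± 0.17 and -0.94 ± 0.27, or -0.44, -0.23 and -0.29 without the RN7SK-high libraries, each with overlap. Of 23 angiogenic factors and receptors 13 were below 0, a share near the 52.9% of all rows. Their median was -0.45, but -0.09 without the RN7SK-high libraries and 0.01 under a stricter filter on low counts, which tests fewer of them. ECM1, a secreted matrix protein, ranged over 67.3 to 145 CPM in spleen-strengthening samples and 110.3 to 492 CPM in blood-activating samples, and EFNA1, an ephrin, over 1.80 to 4.40 CPM in spleen-strengthening samples and 3.20 to 8.62 CPM in blood-activating samples, with overlap in both. EPHA2, the receptor of EFNA1, had a log2 fold change of -0.50 ± 0.16, or -0.10 without the RN7SK-high libraries.

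Coagulation and fibrinolysis genes were listed because the blood-activating treatment is named for blood stasis. Of 23 tested genes 13 were below 0, a share near the 52.9% of all rows, and 6 reached an unadjusted p under 0.05, all lower in spleen-strengthening samples (12.2% of all rows). Their median was -0.15, and it was -0.06 without spleen-strengthening sample 08 and -0.08 without spleen-strengthening sample 06. F12, the contact factor XII, stood at 0.927, 1.38, 2.32, 1.35 and 2.08 CPM in spleen-strengthening samples, against 4.25, 2.78, 3.24, 5.02 and 5.71 CPM in blood-activating samples. GAS6, a vitamin K-dependent ligand of AXL, stood at 8.61, 8.79, 5.01, 7.59 and 6.83 CPM in spleen-strengthening samples, against 20.4, 9.03, 10.4, 15.8 and 17.8 CPM in blood-activating samples. Neither overlapped between groups, though F12 shares 399 exon bases with GRK6. PLAU, the urokinase that activates plasminogen, ranged over 23.3 to 29.04 CPM in spleen-strengthening samples and 26.1 to 86.2 CPM in blood-activating samples. Its groups overlapped through blood-activating sample 04, and its log2 fold change of -1.24 ± 0.34 was -0.38 without the RN7SK-high libraries. F3, tissue factor and the trigger of clotting, stood at 535, 498, 430.1, 506 and 470.1 CPM in spleen-strengthening samples, against 454, 449.5, 680.4, 715 and 559.9 CPM in blood-activating samples, with overlap and a log2 fold change of -0.23 ± 0.14.

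Of 24 NRF2 targets and antioxidant genes 18 were below 0, with a median of -0.32, or -0.12 without the RN7SK-high libraries. TKT, a transketolase of the pentose phosphate pathway, stood at 48.2, 47.3, 37.4, 53.6 and 37.9 CPM in spleen-strengthening samples, against 97.7, 54.6, 70.6, 78.6 and 94.0 CPM in blood-activating samples, without overlap. SRXN1, sulfiredoxin, and NFE2L2, which encodes NRF2, had log2 fold changes of -0.71 ± 0.21 and -0.30 ± 0.10, or -0.18 and -0.12 without the RN7SK-high libraries. FTH1, the heavy chain of ferritin, ranged over 807 to 1280 CPM in spleen-strengthening samples and 776 to 4616 CPM in blood-activating samples, where sample 04 lay below every spleen-strengthening sample and samples 01, 08 and 09 were the highest.

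Ribosomal protein genes were lower in 31 of 40 cases, with a median of -0.36, or -0.13 without the RN7SK-high libraries, and 22 were lower (12.2% of all rows) and 4 higher (8.28% of all rows) at an unadjusted p under 0.05. RPL37 stood at 36.2, 34.7, 27.4, 48.6 and 29.9 CPM in spleen-strengthening samples, against 129, 59.8, 72.8, 158 and 149.8 CPM in blood-activating samples, and RPL11, which also restrains MDM2, at 44.7, 48.5, 39.9, 52.8 and 44.8 CPM in spleen-strengthening samples, against 73.2, 54.2, 64.7, 87.7 and 86.4 CPM in blood-activating samples. These 2 genes made up the separate groups of this list. RPL7, with many pseudogene copies that may share reads, ranged over 302 to 388 CPM in spleen-strengthening samples and 344 to 559 CPM in blood-activating samples. Nucleolar assembly factors went both ways: NAT10, an RNA acetyltransferase, was higher at 51.9, 58.4, 54.7, 52.3 and 52.3 CPM in spleen-strengthening samples, against 36.4, 47.3, 49.1, 31.0 and 36.4 CPM in blood-activating samples, whereas FBL, the methyltransferase fibrillarin, ranged over 4.80 to 8.45 CPM in spleen-strengthening samples and 8.02 to 14.2 CPM in blood-activating samples and RRP1 over 2.56 to 5.58 CPM in spleen-strengthening samples and 4.61 to 9.46 CPM in blood-activating samples. RRP1 and RRP1B are paralogs and differed in the sign of the log2 fold change, -0.99 ± 0.28 and 0.57 ± 0.11, or -0.46 and 0.48 without the RN7SK-high libraries.

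Repair genes were higher in spleen-strengthening samples on balance. Of 30 repair genes 23 were above 0, with a median of 0.21, which was 0.09 without the RN7SK-high libraries and 0.13 without blood-activating sample 08, and 11 were higher and 2 lower at an unadjusted p under 0.05 (8.28% of all rows were higher). Besides RECQL, separate groups were found for CHEK1, the checkpoint kinase, and XRCC6, the Ku70 end-binding protein. CHEK1 stood at 29.3, 29.2, 26.2, 25 and 25.7 CPM in spleen-strengthening samples, against 17.2, 22.3, 23.1, 14.98 and 16.9 CPM in blood-activating samples, and XRCC6 at 231, 258, 230.0, 210.4 and 219 CPM in spleen-strengthening samples, against 145, 205, 207, 117 and 142 CPM in blood-activating samples. RECQL4, another RecQ helicase, lay the other way with a log2 fold change of -1.01 ± 0.29, or -0.32 without the RN7SK-high libraries, and with overlap. Of 36 mitotic genes 25 were above 0, and 4 had separate groups (1.94% of all rows). Their median was 0.17, and it was 0.11 without the RN7SK-high libraries, 0.11 without spleen-strengthening sample 07 and 0.04 without blood-activating sample 08. CCNB2, a mitotic cyclin, stood at 47.5, 50.9, 43.9, 50.7 and 41.7 CPM in spleen-strengthening samples, against 35.6, 39.7, 34, 20.7 and 32.1 CPM in blood-activating samples, and KIF20B, a kinesin of cytokinesis, ranged over 63.0 to 67.7 CPM in spleen-strengthening samples and 33.8 to 57.0 CPM in blood-activating samples. Blood-activating sample 08 was the lowest in each, and its median mitotic gene stood at -0.73 log2 units relative to the spleen-strengthening mean, against -0.17 to 0.03 in the other 4 blood-activating samples.

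Of the replication genes, MCM7, a subunit of the replicative helicase, stood at 29.4, 28.6, 28.7, 31.1 and 28.6 CPM in spleen-strengthening samples, against 64.2, 36.9, 35.5, 38.4 and 55.1 CPM in blood-activating samples and was lower without overlap. CDT1, which loads that helicase, ranged over 4.76 to 10.3 CPM in spleen-strengthening samples and 8.76 to 14.3 CPM in blood-activating samples, with spleen-strengthening sample 07 far above its group. Of 30 spliceosome and SR protein genes 23 were above 0, with a median of 0.17, or 0.05 without the RN7SK-high libraries. At an unadjusted p under 0.05, 14 were higher (8.28% of all rows) and 1 lower (12.2% of all rows). SRSF1, the founding SR protein, stood at 293, 279, 282, 260.2 and 269 CPM in spleen-strengthening samples, against 241, 242, 241, 218 and 237 CPM in blood-activating samples, and SRSF10 ranged over 94.8 to 109 CPM in spleen-strengthening samples and 77.2 to 93.8 CPM in blood-activating samples. Their groups did not overlap, with small log2 fold changes of 0.23 ± 0.08 and 0.26 ± 0.09, or 0.21 and 0.16 without the RN7SK-high libraries. Of 29 tested replication-dependent histone genes 23 were below 0, with a median of -0.45 that was -0.07 without the RN7SK-high libraries. H4C4 and H3C13 ranged over 11.4 to 18.5 CPM in spleen-strengthening samples and 14.9 to 53.6 CPM in blood-activating samples and over 5.39 to 8.11 CPM in spleen-strengthening samples and 6.68 to 26.4 CPM in blood-activating samples, and no histone gene had separate groups.

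With all libraries, mitochondrial messenger RNAs and nuclear genes of the respiratory chain lay in opposite directions on balance. Of 13 messenger RNAs of the mitochondrial genome 12 were above 0, with a median of 0.29, or 0.07 without the RN7SK-high libraries, and none had separate groups. Without those libraries 6 of the 13 were below 0. With a term for those libraries in the fit the median was -0.06, and that of the nuclear genes was -0.08, the same sign. MT-ATP6 ranged over 14590 to 24300 CPM in spleen-strengthening samples and 9818 to 19710 CPM in blood-activating samples, overlapping at spleen-strengthening sample 07. MT-ND3, a complex I subunit, was the exception and stood at 234, 285, 317, 298 and 341 CPM in spleen-strengthening samples, against 297, 467, 409, 399 and 444 CPM in blood-activating samples, with a log2 fold change of -0.45 ± 0.15 and -0.56 without the RN7SK-high libraries. Of 31 nuclear subunit genes 21 were below 0, with a median of -0.22, or -0.15 without the RN7SK-high libraries. At an unadjusted p under 0.05, 11 were lower (12.2% of all rows) and 2 higher (8.28% of all rows), and 4 had separate groups, all lower (2.49% of all rows). COX5B, a subunit of cytochrome oxidase, stood at 6.16, 8.34, 6.84, 8.66 and 7.25 CPM in spleen-strengthening samples, against 27.3, 10.9, 12.5, 21.1 and 32.9 CPM in blood-activating samples. CYC1, cytochrome c1, ranged over 59.0 to 69.7 CPM in spleen-strengthening samples and 73.1 to 154 CPM in blood-activating samples, and ATP5F1B, the catalytic subunit of ATP synthase, over 74.3 to 109.9 CPM in spleen-strengthening samples and 119 to 187 CPM in blood-activating samples. These 3 did not overlap, with log2 fold changes of -1.49 ± 0.37, -0.83 ± 0.21 and -0.78 ± 0.21, or -0.64, -0.26 and -0.45 without the RN7SK-high libraries.

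Of 22 transfer RNAs of the mitochondrial genome, 3 were lower in spleen-strengthening samples without overlap. With all libraries 17 of the other 19 had a log2 fold change above 0, as most of its messenger RNAs did. Without the RN7SK-high libraries those 19 lay on both sides of 0, between -0.49 and 0.47, and 6 of the 13 messenger RNAs were below 0. MT-TY, the tRNA for tyrosine, was among the rows with the smallest p lower in spleen-strengthening samples, and its neighbours MT-TC (cysteine) and MT-TN (asparagine) were examined after its value was seen. The 3 genes lie side by side on the - strand, in the cluster that flanks the origin of light-strand replication. Their sequences (GENCODE 29, GRCh38) are given with the anticodon in capitals.
MT-TN, chrM:5657-5729, - strand: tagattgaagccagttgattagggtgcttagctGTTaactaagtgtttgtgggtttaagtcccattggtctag
MT-TC, chrM:5761-5826, - strand: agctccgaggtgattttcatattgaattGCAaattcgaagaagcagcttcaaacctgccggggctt
MT-TY, chrM:5826-5891, - strand: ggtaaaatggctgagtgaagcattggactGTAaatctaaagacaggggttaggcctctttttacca
MT-TN stood at 18.0, 28.4, 32.9, 44.9 and 31.0 CPM in spleen-strengthening samples, against 86.4, 68.7, 58.4, 70.0 and 105 CPM in blood-activating samples. MT-TC stood at 29.5, 42.3, 48.8, 61.4 and 44.6 CPM in spleen-strengthening samples, against 131, 93.8, 78.8, 106 and 159 CPM in blood-activating samples. MT-TY stood at 25.3, 34.2, 39.0, 51.1 and 34.3 CPM in spleen-strengthening samples, against 128, 77.9, 63.4, 102 and 148 CPM in blood-activating samples. In each of the 3 genes every blood-activating sample exceeded every spleen-strengthening one. Log2 fold changes were -1.32 ± 0.28, -1.33 ± 0.26 and -1.50 ± 0.29, and -1.03, -0.92 and -0.93 without the RN7SK-high libraries. The smallest edgeR adjusted p of the 3 was 0.0835.

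With all libraries the other 19 mitochondrial tRNAs had log2 fold changes between -0.37 and 1.01, 17 above 0 and 2 below, and the smallest unadjusted p among them was 0.110. Without the RN7SK-high libraries they ran between -0.49 and 0.47. MT-TA (alanine), the nearest gene on the same strand, stood at 5.56, 16.2, 15.2, 12.1 and 19.5 CPM in spleen-strengthening samples, against 14.8, 18.4, 20.1, 16.0 and 19.3 CPM in blood-activating samples, with overlap and a log2 fold change of -0.37 ± 0.36. MT-TS1 and MT-TP, also on the - strand, had log2 fold changes of 0.14 ± 0.30 and 0.47 ± 0.45, which were -0.49 and -0.22 without the RN7SK-high libraries. MT-TC and MT-TY share 1 base, so a read across both may be counted in either, and the 3 rows are not independent. Nuclear copies of mitochondrial sequence may share reads with them.

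**Figure D4:**
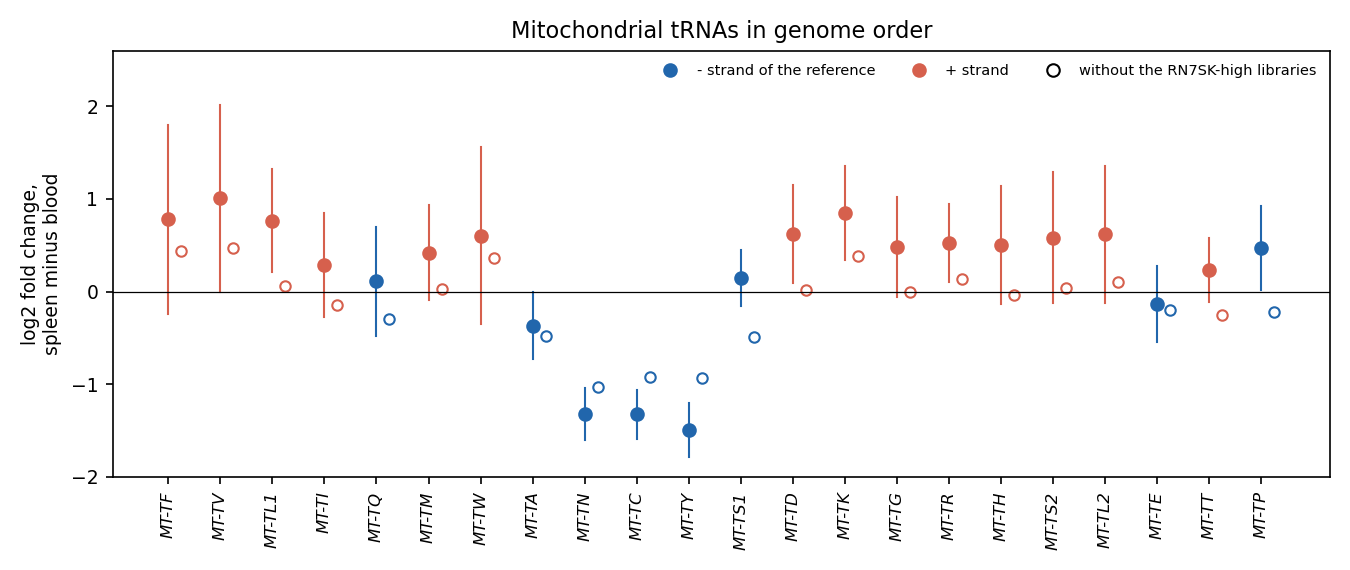
Log2 fold change (spleen-strengthening over blood-activating) of 22 mitochondrial tRNAs in genome order, with bars of 1 standard error, blue for the - strand and red for the + strand; open symbols are without the RN7SK-high libraries. With all libraries MT-TN, MT-TC and MT-TY lie between -1.50 and -1.32, and the other 19 between -0.37 and 1.01.

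Among other small noncoding RNAs, RPPH1, the RNA of RNase P, ranged over 1799 to 2608 CPM in spleen-strengthening samples and 2278 to 8476 CPM in blood-activating samples, and RMRP, the RNA of RNase MRP, over 1984 to 2369 CPM in spleen-strengthening samples and 840.2 to 2170 CPM in blood-activating samples. The 3 RN7SK-high libraries were highest for RPPH1 and lowest for RMRP, and samples 04 and 06 lay within or next to the spleen-strengthening range for both.

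The differences varied with the GC content of the genes. In 8842 coding genes with a mean log2 CPM of 3 or more, the median log2 fold change was 0.21 where the GC content of the exons was under 40%, and 0.15, 0.05, -0.11, -0.32 and -0.51 in steps up to over 60%. Without the RN7SK-high libraries the medians were 0.08, 0.06, 0.05, -0.01, -0.07 and -0.14. The slope of log2 CPM on GC per library was -0.17 to -0.03 per 10 percentage points in spleen-strengthening samples, against 0.29, -0.10, 0.00, 0.25 and 0.24 in blood-activating samples. Its part in the gene list medians was not tested.

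**Figure D5:**
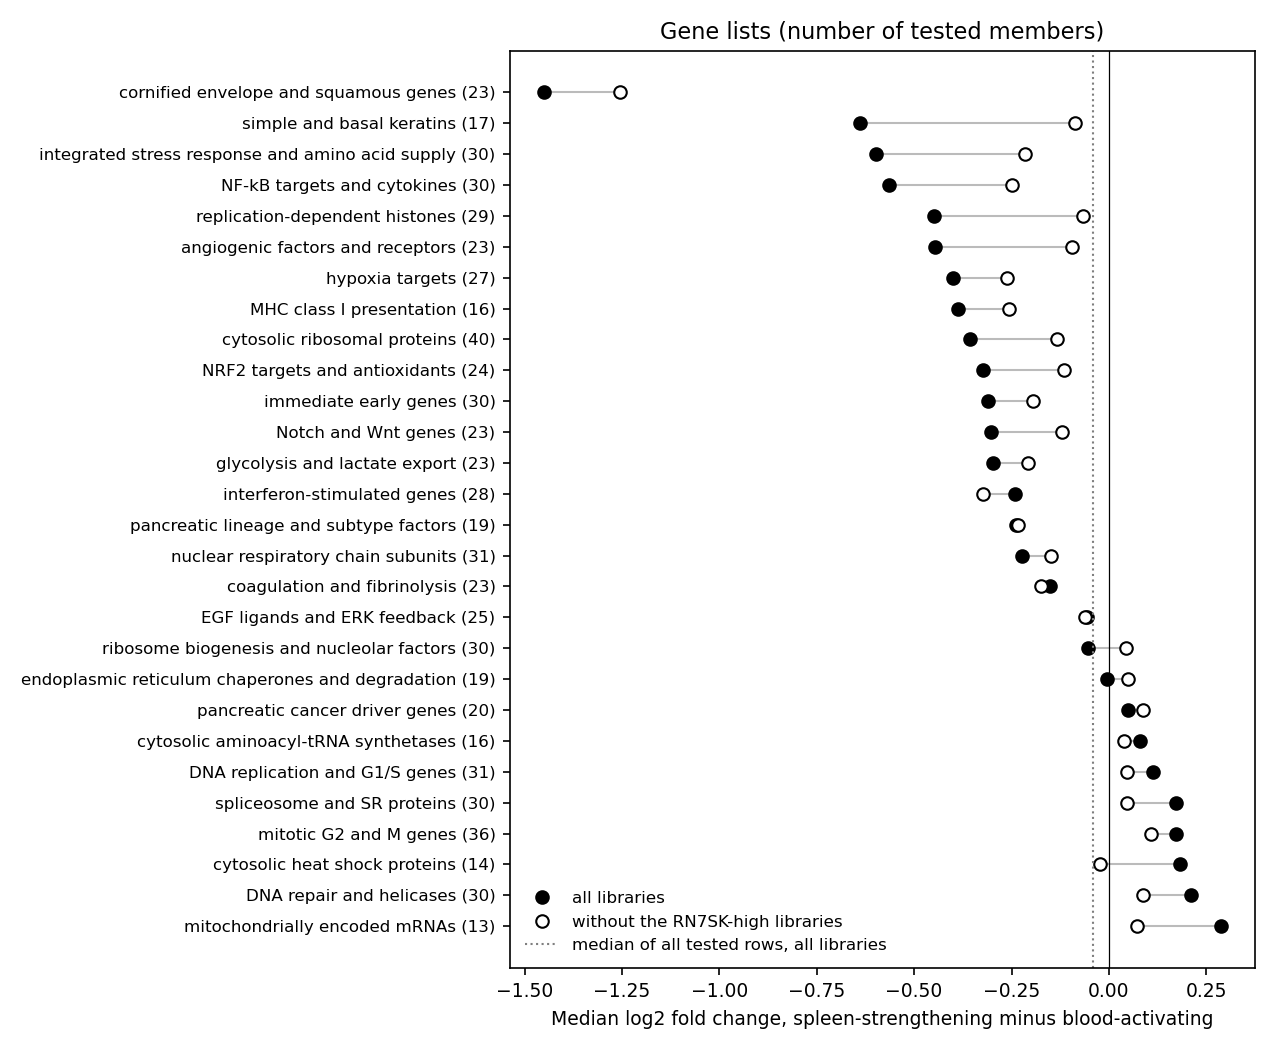
Median log2 fold change (spleen-strengthening over blood-activating) of 28 gene lists; filled points use all libraries, open points leave out those above 5% RN7SK, and the dotted line is the median of all 24790 tested rows, -0.04. The squamous list keeps a median of -1.26 without those libraries, against -1.45 with them, whereas the keratin and histone medians come to -0.09 and -0.07.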

How the data were processed

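Total RNA was extracted with TRIzol, depleted of ribosomal RNA and made into strand-keeping libraries, per the labels' protocols. Reads were processed with HISAT2 and StringTie on hg38, per the submitters' processing notes. Of the versions, the strand setting and any step for mouse reads, the sources used here say nothing. The authors deposited 1 table of raw read counts, 60656 rows (GENCODE 29 gene types and coordinates were added by symbol), with total counts of 81685860 to 110489122 per sample in the 10 samples described.

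Rows with a count of 10 or more in enough samples (filterByExpr) were kept, scaled by TMM and tested with edgeR 4.0.16 (quasi-likelihood, robust, all 20 samples in 1 fit of 4 treatments) in R 4.3.3, with Benjamini-Hochberg adjustment over 24790 rows. Alternatives were DESeq2 1.42.0, limma 3.58.1 voom with quality weights, RLE and upper quartile scaling, other filters, the title letter, a replicate block, the pair alone, an acinar covariate, the RN7SK-high libraries left out or given a term, and each sample left out. The test was checked on simulated counts with known folds. Summed markers were compared by exact permutation over 252 splits. The members, gene lists and rules were chosen with earlier results of these data known. Genes named are, at a mean log2 CPM of 0 or more, the 10 with the smallest p in each direction and up to 4 per list, at a mean log2 CPM of 1 or more the 6 with the widest gap between groups in each direction, and those called without the RN7SK-high libraries. NAB2, SH2D5, RN7SK, RPPH1 and RMRP were named from earlier results, and KRTDAP, CSTA, S100A8, TGM1, SPRR1B, SPRR3, KRT14, KRT6A, ATF3, ATF4, CHAC1, CEBPG, SLC1A5, SLC7A1, HSPA1B, NFKBIE, TNFAIP3, PTGS2, HLA-E, NOTCH1, DUSP6, F3, MT-TN, MT-TC, MT-TA, MT-TS1 and MT-TP after their values were seen. Some genes that the rule names are not reported here.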

Additional observations from a re-analysis of the deposited data

Results flagged for a closer look

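Of 336 sets of 5 values examined for a library far from the other 4 of its group, 13 held one; chance alone flags about 1 in 20 such sets. In blood-activating sample 06 PRSS1 stood at 112.1 CPM and the summed acinar markers at 1063 CPM, each far above the other 4. Blood-activating sample 01 held 4 such values: PCK2 at 7.48 CPM, HLA-B at 255.7 CPM and PSMB9, an immunoproteasome subunit, at 9.41 CPM were above the rest of the group, and SPRR3 at 304.9 CPM was below it. Blood-activating sample 08 had the lowest SRSF1 of its group, 218.3 CPM. Spleen-strengthening sample 07 stood apart in PDIA3 at 178.2 CPM and CDT1 at 10.3 CPM, both high, and in MT-ATP8 at 7190 CPM and TNFAIP3 at 2.25 CPM, both low. Spleen-strengthening sample 08 had the highest HES4, 8.14 CPM. Spleen-strengthening sample 02 alone had counts for SH2D5, at 0.0374 CPM.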

How the results depend on the processing

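The count of rows called, 0 under edgeR, was 2 with no filter on low counts, 2 with only the 10 samples of the pair, 3 without the RN7SK-high libraries, 1785 with the acinar markers as a covariate, 1933 under DESeq2 and 4880 under limma voom. It ran between 0 and 2002 when each sample was left out in turn: 2002 without blood-activating sample 04, 311 without heat-clearing sample 03 and 12 without heat-clearing sample 02. The count at an unadjusted p under 0.05 was 5087 of 24790 rows (20.5%) in the main fit. It was 9996 of 48067 rows with no filter and 8221 of 24790 under limma voom. Without the RN7SK-high libraries it was 1861 of 28334 rows, and with a term for them 1339 of 24790. In the fit with that term 0 rows were called, and the smallest edgeR adjusted p was 0.435. Over the samples left out the count at an unadjusted p under 0.05 ran from 3902 to 6286. The count of genes whose groups do not overlap, 1099, was 2841 without the RN7SK-high libraries and 1228 to 2831 over the samples left out, in part because fewer samples separate more easily. RLE and upper quartile scaling, a stricter filter and the title letter gave 0 calls.

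With a replicate block by title number 2 rows were called. The numbers 06 and 08 are shared by both groups, and the deviations of same-numbered samples had correlations of 0.01 and 0.03, so the numbers were not taken as pairs.

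Without the RN7SK-high libraries the log2 fold change of CARS1 was 0.0182, that of GNAS 0.0715, that of MT-TS1 -0.488 and that of MT-TP -0.219, opposite in sign to the values in all samples. With a term for them, SPRR1B was at -0.171, H4C11 at 0.0385, MT-TS1 at -0.271, MT-TP at -0.379, the histone median at 0.0385 and the mitochondrial messenger RNA median at -0.0617. MT-TS1 ran between -0.0468, without blood-activating sample 01, and 0.408 over the samples left out. Under the stricter filter the angiogenic median was 0.0147 and the squamous median -0.565, and with the replicate block the squamous median was -0.821. The cause of these was not tested.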
